A study of Mus musculus with 21 samples.

Results

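Glycolysis turns glucose into pyruvate in the cytosol, and pyruvate is then either reduced to lactate and exported or oxidised in mitochondria by the pyruvate dehydrogenase complex. Mouse embryonic stem cells (ESCs) in culture depend strongly on glycolysis. They also depend on threonine dehydrogenase, which helps to feed glycine into one-carbon metabolism. Retinoic acid (RA), the active derivative of vitamin A, drives ESCs out of pluripotency by switching on target genes through nuclear receptors, and Cyp26a1 is an enzyme that degrades it. The genes described here are 32 members chosen by name: the transporters and enzymes from glucose entry to pyruvate, the lactate and pyruvate dehydrogenase genes, 4 regulators and Tdh. All 32 were listed by gene name in all 21 libraries, out of 32285 genes in the time-course tables and 25239 in the tables of the knockout set. All 32 passed the filter on low values (at least 1 TPM, expression normalised for length and library total, in at least 3 libraries) in both sets.

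The starting cells were wild-type ESCs kept in serum with 2i (PD0325901 plus CHIR99021) and LIF, a medium that holds ESCs in a naive state. From them, wild-type cells were taken 12 h and 24 h after LIF/2i was withdrawn without RA, and 12 h and 24 h into culture with 2 µM RA, with 3 libraries in each of these 5 groups. A further set held 3 wild-type and 3 Cyp26a1 knockout libraries, all kept 24 h with 2 µM RA after LIF/2i removal. Polyadenylated RNA of whole cultures was sequenced. The labels do not say whether libraries of a group came from separate cultures, or how many clones the knockout libraries represent, so p-values measure only the spread between these libraries. The 2 sets were summarised by the authors on different gene models, and Gapdh was listed at 5786 to 7659 TPM in time-course libraries but at only 131 to 213 TPM in libraries of the knockout set, so levels are never compared between the sets.

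Depth, estimated from the ratio of coverage to FPKM, ran from 2.96 to 3.91 aligned gigabases over the 15 time-course libraries and from 2.72 to 3.24 over the other 6. All 9 pluripotency markers stood at 1 TPM or more in every library. Cyp26a1 was listed at 0 in the starting cells, at 336, 281 and 324 TPM after 24 h with RA, at 585, 606 and 592 TPM in the wild-type libraries of the knockout set and at 4.62, 4.03 and 4.93 TPM in the knockout libraries. Some libraries stood apart from others of their group: 1 axis took 67.2% of the within-group variance of the time course, with the first 12 h library without RA and the second 24 h library with RA at one end (scores of -40.18 and -49.83) and the second 12 h library without RA and the third 24 h library with RA at the other (35.11 and 31.23). The third knockout library stood apart in the same way (-36.4 on an axis with 70.1% of the variance).

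In the starting cells, the members spanned 5.16 TPM (Eno2) to 7234 TPM (Gapdh) by group mean. After Gapdh came Aldoa at 4099 ± 292 TPM, Pkm at 3673 ± 200.1 TPM, Eno1 at 3444 ± 189.7 TPM and Ldha at 2705 ± 120.3 TPM (SD, n = 3). The libraries of Pkm and Eno1 overlapped, as did those of Pgk1 at 1598 ± 109 TPM and Pgam1 at 1560.0 ± 92.97 TPM. Tdh, the threonine dehydrogenase, ranked 10 of 32 at 860.1 ± 33.5 TPM. Together the 32 genes made up 3.12% ± 0.137 of all TPM in the starting cells, 2.31% ± 0.115 after 12 h without RA, 3.00% ± 0.0212 after 24 h without RA, 2.21% ± 0.0186 after 12 h with RA and 2.97% ± 0.218 after 24 h with RA. Eno1 has a close copy, Eno1b, listed at 799.9 to 1118 TPM by group mean in the time course, and Gapdh, Aldoa, Tpi1, Pgam1, Ldha and Pkm belong to families with many processed copies, so reads may be split among them and their levels are uncertain. Counting by strand is not given in the sources used here.

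**Figure D1:**
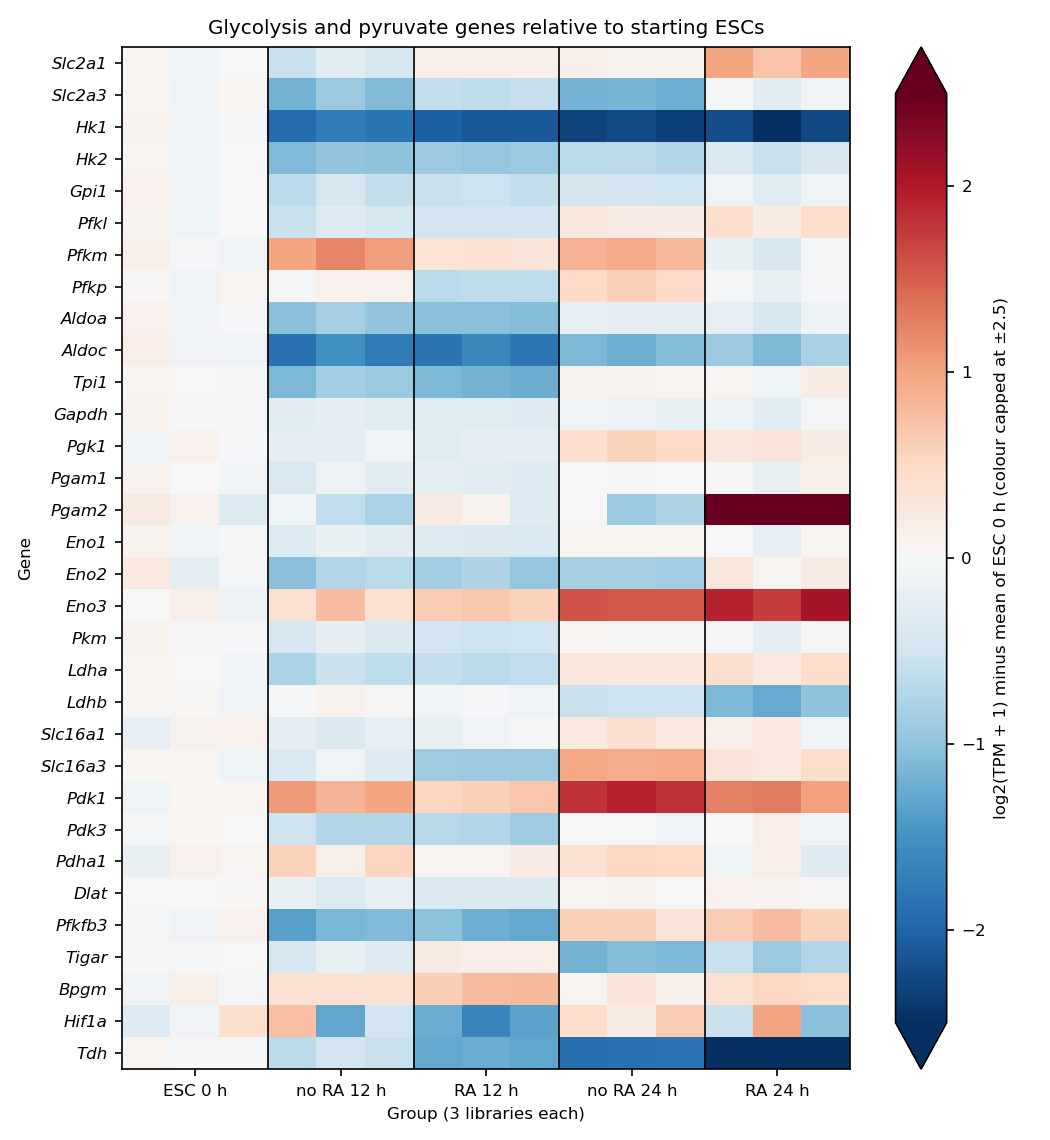
Each row is one of the 32 genes and each column a library of the time course. Colour gives log2(TPM + 1) minus the mean of the 3 starting ESC libraries, capped at 2.5 in either direction. Most rows turned blue at 12 h without RA; some, such as Tpi1 and Ldha, lost that colour by 24 h, while others, such as Hk1, Slc2a3, Aldoc and Tdh, stayed blue. Pdk1 and Eno3 were red at both times, and Pgam2 was dark red only in the 3 libraries with 24 h of RA.

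The first question was how these genes changed after LIF/2i withdrawal without RA. The starting cells gave the only libraries in LIF/2i, with none matched to the later times. The separate parts of withdrawal and of the hours passed were therefore not tested. After 12 h without RA, 23 of the 32 members fell, 5 rose and 4 were not called, against 20.4% of all 13948 genes tested that fell and 22.0% that rose (limma on log2(TPM + 1), Benjamini-Hochberg adjusted p under 0.05 over all genes). The members' median log2 difference was -0.34 and that of all genes -0.04. Both glucose transporters, both hexokinases, 5 of 7 upper glycolysis genes and 6 of 8 lower glycolysis genes were lower. A lower level in whole-culture RNA can mean less RNA per cell or fewer cells that express the gene, and these cannot be told apart here. Marker sums of other cell types moved as well. From the start to 12 h without RA, trophoblast markers went from 92.3 to 103 TPM to 55.1 to 71.6 TPM. Neural markers went from 57.4 to 61.2 TPM to 73.5 to 88.6 TPM. Genes of both lists went both ways. Of the trophoblast list, Tfap2c (mean 44.3 to 5.501 TPM), Cdx2 and Krt8 had lower means at 12 h. Krt18 (10.89 to 19.04 TPM), Eomes, Gata3 and Elf5 had higher ones. Of the neural list, Tubb3 (49.05 to 69.8 TPM) and Pax6 had higher means, and Sox1 and Nes lower ones. By 24 h extraembryonic endoderm markers had gone from 75.8 to 89.5 TPM to 42.5 to 49.3 TPM. Fibroblast markers had gone from 7.03 to 8.73 TPM to 15.3 to 18.4 TPM. These lists also went both ways. Of the endoderm list, Lama1 (mean 72.6 to 3.37 TPM), Gata4 and Pdgfra had lower means at 24 h. Col4a1 (8.05 to 39.98 TPM), Gata6, Sox17, Sox7 and Dab2 had higher ones. Of the fibroblast list, Thy1 (4.65 to 13.3 TPM), Dcn, Col3a1 and Postn had higher means, and Col1a1, Col1a2 and Pdgfra lower ones. The sums therefore do not show that whole cell types were gained or lost. The part of other cell types in the members' values was not tested.

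Hk1, the hexokinase form that phosphorylates glucose in most tissues, stood at 200.3, 179 and 184 TPM in the starting libraries and at 48.9, 55.3 and 52.1 TPM after 12 h without RA. The groups were far apart, with a log2 difference of -1.83 ± 0.08 (SE; limma adjusted p = 8.74e-10). Hk2, the inducible form, went from 303, 277 and 289 TPM to 135, 145 and 143 TPM, a difference of -1.03 ± 0.06 (limma adjusted p = 7.63e-09). The high-affinity glucose transporter Slc2a3 (GLUT3) fell from 1034, 944 and 1042 TPM to 445, 526 and 469 TPM, again without overlap (-1.07 ± 0.07, limma adjusted p = 6.42e-08). The basal transporter Slc2a1 (GLUT1) also fell, from 483, 443 and 461 TPM to 314, 375 and 341 TPM (-0.43 ± 0.08, limma adjusted p = 0.000439). Whether the falls of the 2 transporters differ was not tested.

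Among the upper glycolysis genes, the largest fall was that of Aldoc, the brain form of aldolase, the enzyme that splits the phosphorylated sugar. Aldoc went from 50.7, 42.6 and 42.4 TPM to 11.7, 14.96 and 12.6 TPM and Aldoa from 4431, 3880.4 and 3987 TPM to 1985, 2299.6 and 2068 TPM, with log2 differences of -1.72 and -0.95. Tpi1, triosephosphate isomerase, fell from 1235, 1171 and 1134 TPM to 540.3, 654 and 615 TPM, without overlap (-0.97 ± 0.08, limma adjusted p = 4.44e-07). The abundant lower glycolysis genes changed less: on the log2 scale Pkm fell by 0.34, Gapdh by 0.28, Eno1 by 0.27, Pgam1 by 0.27 and Pgk1 by 0.19, while the low-level enolase Eno2 fell by 0.82. Ldha, the lactate dehydrogenase subunit that favours lactate formation, fell from 2823, 2709 and 2583 TPM to 1559, 1862 and 1752 TPM (-0.65 ± 0.07, limma adjusted p = 5.03e-06), whereas Ldhb, the subunit typical of heart, was at 852, 840.5 and 795 TPM and then 798, 879 and 844 TPM, with overlapping libraries. Pfkfb3, which makes the sugar phosphate that activates phosphofructokinase, fell from 20.5, 19.6 and 22.4 TPM to 7.502, 8.82 and 9.14 TPM (-1.21 ± 0.11, limma adjusted p = 1.25e-06).

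The 5 members that rose by 12 h came from 4 roles that also held genes that fell. Pfkm, the muscle form of phosphofructokinase, rose from 51.3, 45.4 and 43.5 TPM to 93.5, 109.9 and 97.7 TPM (1.09 ± 0.10, limma adjusted p = 9.97e-07). Pdk1, a kinase that switches off pyruvate dehydrogenase, rose from 34.1, 38.5 and 38.5 TPM to 77.8, 67.1 and 74.4 TPM (0.96 ± 0.09, limma adjusted p = 1.04e-06), while Pdk3, another of these kinases, fell from 51.7, 55.6 and 53.8 TPM to 37.3, 31.96 and 32.1 TPM. In each case every 12 h library lay on one side of every starting library. The muscle enolase Eno3 (log2 difference 0.51), Pdha1, the catalytic subunit of the dehydrogenase (0.42), and Bpgm, which diverts a glycolytic intermediate to bisphosphoglycerate (0.37), completed the list. Calls of 16 of the 23 genes that fell and 4 of the 5 that rose held under every alternative run; Gapdh, Pgk1, Pgam1, Eno1, Slc16a1, Slc16a3, Tigar and Pdha1 each lost theirs under at least 1, for example Gapdh after scaling by median of ratios (adjusted p = 0.0606) and Pdha1 without the first starting library (0.0862).

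By 24 h without RA the picture was mixed: against the starting cells 11 members were higher, 10 lower and 11 not called, where 25.4% of all genes tested were higher and 26.5% lower, so neither count is far from the background. Tpi1 was back at 1252, 1246 and 1215 TPM, overlapping the starting cells, and Eno1, Pkm, Pgam1, Pdk3 and Dlat also overlapped with them. Hk1 stood lower, at 36.8, 39.05 and 36.2 TPM (-2.30 ± 0.08 against the start, limma adjusted p = 6.88e-11), and Slc2a3 remained at 443, 448 and 434 TPM (-1.19 ± 0.07, limma adjusted p = 1.65e-08). Tdh fell in both intervals, from 899, 839 and 843 TPM at the start to 547, 619.5 and 585 TPM and then 232, 235 and 239.9 TPM (-1.86 ± 0.08 over 24 h, limma adjusted p = 7.87e-10). Tigar, a phosphatase that lowers the activator of phosphofructokinase, ended at 20.9, 22.5 and 21.8 TPM against 49.9, 47.6 and 48.4 TPM (-1.13 ± 0.09, limma adjusted p = 1.86e-07).

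The other lower members were Hk2 (-0.69), Gpi1, the isomerase after hexokinase (-0.48), Aldoc (-1.15), Aldoa (-0.22), Eno2 (-0.83) and Ldhb (-0.53).

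Genes of pyruvate handling were among those above their starting level at 24 h. Pdk1 reached 132, 145 and 134 TPM (1.86 ± 0.09, limma adjusted p = 1.30e-09). Slc16a3 (MCT4), a transporter that exports lactate, reached 209, 205 and 206 TPM against 111, 111 and 99.4 TPM (0.95 ± 0.07, limma adjusted p = 2.01e-07). Eno3 reached 103, 100.3 and 100.1 TPM against 33.98, 36.8 and 30.8 TPM (1.55 ± 0.11, limma adjusted p = 7.63e-08). All 3 were above every starting library. Pgk1 (log2 difference 0.49), Pfkp (0.53), Pfkm (0.89), Pfkfb3 (0.49), Pdha1 (0.46), Ldha (0.26) and Pfkl (0.23) were also higher; the call of Slc16a1 (0.30) turned to -0.00313 (adjusted p = 0.990) with a correction for GC content and length, and those of Pfkl, Ldha and Aldoa were lost under other alternatives, among them scaling by median of ratios (adjusted p = 0.104, 0.0570 and 0.132). With the GC and length correction Slc2a1 (0.26), Tpi1 (0.09), Eno1 (0.22) and Pkm (0.24) were called higher and Pdk3 (-0.25) lower.

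Setting the 24 h libraries without RA directly against the 12 h libraries, a comparison added after the values had been seen, gave 19 members higher, 4 lower and 9 not called, where 17.1% of all genes tested were higher and 22.6% lower. It uses the same 12 h libraries as the first comparison, so the 2 sets of values are side by side and not independent. Pfkfb3 showed the largest rise, from 7.502, 8.82 and 9.14 TPM to 32.1, 31.8 and 25.7 TPM (1.70 ± 0.11, limma adjusted p = 1.70e-07). Slc16a3 followed, from 82.1, 99.3 and 85.6 TPM to 209, 205 and 206 TPM (1.21 ± 0.07, limma adjusted p = 1.13e-07), and then Tpi1 (1.04 ± 0.08), Eno3 (1.04 ± 0.11) and Ldha, which went from 1559, 1862 and 1752 TPM to 3233, 3258 and 3239 TPM (0.91 ± 0.07, limma adjusted p = 6.53e-07). None of these libraries overlapped between times. The 4 lower genes were Tdh (-1.30), Tigar (-0.82), Ldhb (-0.54) and Hk1 (-0.47), and all 4 calls held under every alternative, as did 14 of the 19 higher ones (not Pgam1, Eno1, Pfkp, Slc16a1 or Dlat, the last 3 lost only with the GC and length correction at adjusted p = 0.189, 0.679 and 0.163).

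**Figure D2:**
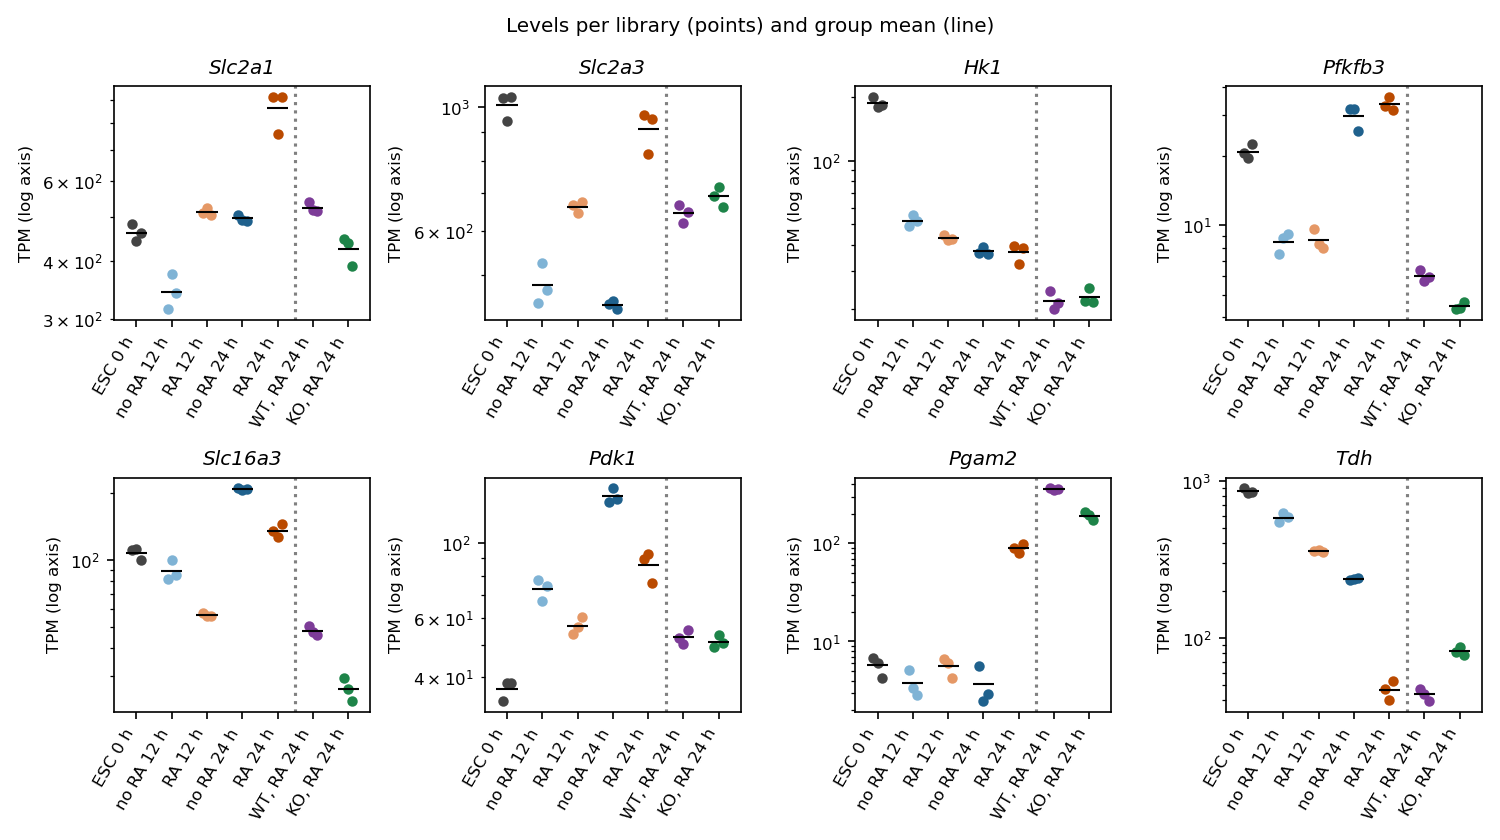
TPM on a log axis for 8 of the genes, 1 point per library and a line at the group mean, with the knockout set right of the dotted line. Pfkfb3 and Slc16a3 dip at 12 h and rise above the start by 24 h without RA, both glucose transporters are higher with RA at each time, Pgam2 rises only in the 24 h libraries with RA, and Tdh falls at each step.

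Hif1a, the oxygen-regulated subunit of the hypoxia-inducible factor that activates many glycolytic genes, was too variable to compare. Its libraries read 18.8, 22.5 and 31.7 TPM at the start, 40.7, 9.06 and 16.7 TPM at 12 h and 33.2, 27.4 and 37.6 TPM at 24 h without RA, and 9.46, 7.01 and 8.84 TPM and 15.9, 47.8 and 10.96 TPM with RA. In the 12 h group without RA and the 24 h group with RA, its highest and lowest libraries were those at the ends of the within-group axis, and the standard error of its differences between 2 groups was 0.50. It was not called in any comparison with all libraries; without the second 24 h library with RA its RA difference at 24 h became -1.23 (limma adjusted p = 0.0294), without the second 12 h library without RA its RA difference at 12 h became -1.53 (adjusted p = 0.0471), and without the first its rise from 12 h to 24 h without RA became 1.33 (adjusted p = 0.0312). In the knockout set it read 43.9, 46.4 and 64.6 TPM in the wild type and 31.2, 34.8 and 80.6 TPM in the knockout, and without the third knockout library its difference became -0.61 (adjusted p = 0.0271). Hif1a is controlled mainly at the protein level, which RNA does not show.

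The list of 28 other HIF regulators and hypoxia-induced genes was counted in the same comparisons. After 12 h without RA 18 of the 28 fell and 2 rose (20.4% and 22.0% of all genes; median log2 difference -0.75), and from 12 h to 24 h 19 rose and 5 fell (17.1% and 22.6% of all genes; median 0.62). Bnip3, a mitophagy receptor, went from 88.4 ± 13.8 TPM at 12 h to 545 ± 22.2 TPM at 24 h (SD, n = 3; 2.62, limma adjusted p = 4.57e-08). Adm, adrenomedullin, was at 7.48 ± 1.04 TPM in the starting cells, 0.213 ± 0.125 TPM at 12 h and 27.6 ± 1.81 TPM at 24 h. Bhlhe40, a transcriptional repressor, fell from 66.8 ± 4.01 TPM to 5.18 ± 0.420 TPM by 12 h, while Epas1, the HIF-2 alpha subunit, rose from 2.46 ± 0.505 TPM to 24.4 ± 0.895 TPM. With RA against no RA, 8 of the 28 were higher and 3 lower at 12 h (10.2% and 7.19% of all genes). At 24 h 11 were higher and 4 lower with RA (22.8% and 12.5% of all genes). Oxygen and medium conditions of the cultures at each time are not given beyond 5% CO2, and their part in these values was not tested.

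HIF binds the core ACGTG or GCGTG, and the promoters of the members were searched for these letters on both strands, for the E-box CACGTG, which contains ACGTG, and for AGGTCA, a core motif of retinoic acid receptors. RefSeq promoter windows (GRCm38.p6, the bases just before and after each start) matched 30 members with 43 starts; Slc2a3 (chr6:122727809-122801640) and Tdh (chr14:63492347-63509092) had none in that table. Of the 43, 31 (72.1%) held ACGTG or GCGTG, against 43.8% of all 32851 promoters in that table. Some windows of the same gene overlap, and by gene 23 of the 30 members held a core. The share by gene over all genes was not counted, and the 43.8% is a share of windows. Base composition was not matched between members and all promoters. CACGTG was in 5 of 43 (11.6%, against 7.15%) and AGGTCA in 9 of 43 (20.9%, against 16.3%). A match is a description of the letters and not a measured site. The promoters below are examples, from 4 genes with large changes between 12 h and 24 h or with RA that held the HIF core. Pgam2, which held none of the 4 motifs, is also shown. Tpi1, whose rise from 12 h to 24 h was larger than that of Ldha, held neither HIF core and is not shown. Capitals mark all motif matches on either strand, and each is written 5′ to 3′ on the gene's strand. They lie at chr7:46845554-46845853 (Ldha, plus strand), chr2:11502041-11502340 (Pfkfb3, minus), chr11:120948817-120949116 (Slc16a3, plus), chr4:119108495-119108794 (Slc2a1, plus) and chr11:5803747-5804046 (Pgam2, minus). The Ldha window held 5 matches to ACGTG, of which 4 are both strands of its 2 CACGTG boxes, and 2 to GCGTG.
Ldha: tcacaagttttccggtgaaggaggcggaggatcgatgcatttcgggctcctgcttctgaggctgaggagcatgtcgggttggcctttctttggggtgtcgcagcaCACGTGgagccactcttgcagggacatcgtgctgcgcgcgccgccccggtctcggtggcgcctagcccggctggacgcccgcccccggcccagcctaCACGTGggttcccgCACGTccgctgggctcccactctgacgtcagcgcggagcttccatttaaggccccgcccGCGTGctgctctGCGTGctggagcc
Pfkfb3: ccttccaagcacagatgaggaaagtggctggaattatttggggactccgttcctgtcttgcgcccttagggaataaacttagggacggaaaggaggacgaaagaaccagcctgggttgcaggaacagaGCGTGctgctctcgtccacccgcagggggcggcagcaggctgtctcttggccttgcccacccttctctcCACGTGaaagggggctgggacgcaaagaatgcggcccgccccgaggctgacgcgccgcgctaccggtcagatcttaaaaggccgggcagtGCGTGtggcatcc
Slc16a3: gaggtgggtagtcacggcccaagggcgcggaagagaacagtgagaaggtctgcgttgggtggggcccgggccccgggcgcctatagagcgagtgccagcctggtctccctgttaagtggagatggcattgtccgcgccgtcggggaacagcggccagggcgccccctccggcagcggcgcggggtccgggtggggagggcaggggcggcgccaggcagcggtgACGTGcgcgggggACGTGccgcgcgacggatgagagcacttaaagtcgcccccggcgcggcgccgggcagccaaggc
Slc2a1: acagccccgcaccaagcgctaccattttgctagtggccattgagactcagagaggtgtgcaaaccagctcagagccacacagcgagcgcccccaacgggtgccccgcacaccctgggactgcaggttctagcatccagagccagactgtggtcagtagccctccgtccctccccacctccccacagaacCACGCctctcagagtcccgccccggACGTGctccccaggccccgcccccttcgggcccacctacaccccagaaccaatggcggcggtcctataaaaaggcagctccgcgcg
Pgam2: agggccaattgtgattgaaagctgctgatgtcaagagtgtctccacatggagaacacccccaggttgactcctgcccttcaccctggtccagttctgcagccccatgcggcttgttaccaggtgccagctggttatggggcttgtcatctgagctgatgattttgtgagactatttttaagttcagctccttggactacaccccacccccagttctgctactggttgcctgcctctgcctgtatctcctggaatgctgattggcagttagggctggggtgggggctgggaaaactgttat

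The second question was what RA added to withdrawal. At 12 h, 4 members were higher with RA (10.2% of all genes tested), 6 lower (7.19%) and 22 not called. At 24 h, 9 were higher (22.8%), 8 lower (12.5%) and 15 not called. The members' medians were -0.06 and -0.00 on the log2 scale against -0.01 and 0.02 for all genes. The higher counts at both times are near those shares of all genes, and the lower counts at both times are above theirs. These 2 comparisons share no library but come from the same fit. All 4 genes higher at 12 h (Slc2a1, Slc2a3, Tigar and Bpgm) were also higher at 24 h, as 5 of the 6 lower at 12 h (Pfkm, Pfkp, Slc16a3, Pdk1 and Tdh) were lower at 24 h. The matching shares over all genes were not counted, so these repeats cannot be set apart from the background.

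Both glucose transporters were higher with RA. Slc2a1 stood at 509.5, 522 and 504 TPM with RA against 314, 375 and 341 TPM without it at 12 h (0.58 ± 0.08, limma adjusted p = 0.000118). At 24 h it stood at 914, 759 and 911 TPM against 506, 492 and 490.4 TPM (0.79 ± 0.08, limma adjusted p = 3.31e-06). Slc2a3 stood at 666, 645 and 675 TPM against 445, 526 and 469 TPM at 12 h (0.47 ± 0.07, limma adjusted p = 0.000426) and at 966, 824 and 949 TPM against 443, 448 and 434 TPM at 24 h (1.04 ± 0.07, limma adjusted p = 1.41e-07). For both genes and both times the RA libraries lay above all libraries without RA. The RA difference of Slc2a3 was larger at 24 h than at 12 h by 0.58 ± 0.10 (limma adjusted p = 0.00344), a call lost with the GC and length correction (0.53, adjusted p = 0.211).

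In the middle of the pathway, RA libraries had less of 2 phosphofructokinases, the enzymes of the committed step. Pfkm was at 59.1, 60.02 and 57.4 TPM with RA against 93.5, 109.9 and 97.7 TPM at 12 h (-0.76 ± 0.10, limma adjusted p = 9.59e-05) and at 41.6, 34.4 and 45.6 TPM against 86.4, 90.5 and 84.2 TPM at 24 h (-1.09 ± 0.10, limma adjusted p = 1.62e-06). Pfkp, the platelet form, was at 149.9, 154 and 155 TPM against 237, 259 and 259 TPM at 12 h (-0.71 ± 0.06, limma adjusted p = 2.49e-06) and at 237, 211 and 232 TPM against 340.4, 367 and 336 TPM at 24 h (-0.62 ± 0.06, limma adjusted p = 3.69e-06). No library of either gene overlapped between the arms; the 12 h call of Pfkp was lost with the GC and length correction (adjusted p = 0.0616). The liver form Pfkl had overlapping libraries at both times (-0.04 and 0.12).

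Further down, the abundant enzymes Aldoa, Tpi1, Gapdh, Pgam1, Eno1, Pkm and Ldha were not called at either time, with log2 differences of -0.21 to 0.10. The minor enzyme forms were different at 24 h. Pgam2, the muscle phosphoglycerate mutase, stood at 6.60, 6.002 and 4.23 TPM with RA and 5.16, 3.33 and 2.84 TPM without it at 12 h, where libraries overlapped, but at 90.7, 78.8 and 98.8 TPM against 5.68, 2.48 and 2.94 TPM at 24 h (4.32 ± 0.25, limma adjusted p = 3.22e-08). The 24 h difference exceeded the 12 h one by 3.84 ± 0.36 (limma adjusted p = 2.98e-05). Its ubiquitous partner Pgam1, at 1595, 1374 and 1693 TPM and 1561, 1536 and 1569 TPM, overlapped between the arms at 24 h. Eno2, the neuronal enolase, stood at 6.49, 5.45 and 6.08 TPM against 2.45, 2.44 and 2.41 TPM at 24 h (1.03 ± 0.14, limma adjusted p = 6.16e-05), and its difference also exceeded that at 12 h (1.07 ± 0.19, limma adjusted p = 0.00402; 0.0583 after quantile normalization). Eno3 was higher at 24 h by 0.34 (limma adjusted p = 0.0260), a call that several alternatives ended.

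Some lactate and pyruvate genes were lower with RA. Slc16a3 stood at 57.5, 56.1 and 56.04 TPM against 82.1, 99.3 and 85.6 TPM at 12 h (-0.64 ± 0.07, limma adjusted p = 3.82e-05) and at 134, 126 and 145 TPM against 209, 205 and 206 TPM at 24 h (-0.61 ± 0.07, limma adjusted p = 2.61e-05). Pdk1 stood at 89.4, 92.8 and 76.3 TPM against 132, 145 and 134 TPM at 24 h (-0.67 ± 0.09, limma adjusted p = 4.90e-05) and differed by -0.36 at 12 h (limma adjusted p = 0.0106, and 0.224 with the GC and length correction); the change between times was not called (-0.31, adjusted p = 0.163). Both arms were separate for each gene and time. Ldhb overlapped at 12 h and stood at 379.9, 347 and 411 TPM against 565, 579 and 582 TPM at 24 h (-0.60 ± 0.06, limma adjusted p = 4.55e-06), a change between times of -0.51 ± 0.08 (limma adjusted p = 0.00256). Pdha1 was lower at 24 h by 0.55 (log2 scale, limma adjusted p = 0.00516), and Dlat, the acetyl transferase subunit of the same complex, was not called (0.02).

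Tdh had the lowest RA difference of the 32 at 24 h. It stood at 355, 362 and 351 TPM with RA against 547, 619.5 and 585 TPM without it at 12 h (-0.71 ± 0.08, limma adjusted p = 3.65e-05), and at 47.4, 39.9 and 53.01 TPM against 232, 235 and 239.9 TPM at 24 h (-2.32 ± 0.08, limma adjusted p = 2.18e-10). The arms did not overlap, and the difference grew by 1.61 on the log2 scale between times (limma adjusted p = 2.71e-06). Tigar was higher with RA at both times (0.49 and 0.39), with 56.7, 54.8 and 54.4 TPM against 36.01, 42.8 and 38.5 TPM at 12 h. Bpgm was higher by 0.36 and 0.29, calls lost in 2 and 7 of 16 alternatives (highest adjusted p = 0.0698 and 0.105). Hk1 was lower at 12 h (-0.26, limma adjusted p = 0.0331, a call most alternatives ended), and at 24 h Hk2 (0.23) and Gpi1 (0.31) were higher and Pgk1 (-0.22) lower, calls lost in 3, 1 and 4 of 16 alternatives (highest adjusted p = 0.0821, 0.0501 and 0.0730). Pfkfb3 was not called at either time (0.02 and 0.17).

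Over the list, the RA difference changed between times in 5 members, 3 upward (Slc2a3, Pgam2 and Eno2; 4.17% of all genes) and 2 downward (Ldhb and Tdh; 2.68%), and 27 were not called. Without the second 24 h RA library, which stood apart, the upward calls numbered 6, adding Slc2a1, Hk1 and Gpi1, and at 24 h Pfkl, Ldha, Slc16a1 and Hif1a became called while Bpgm lost its call. Without the first 12 h library without RA, Tpi1 was called lower with RA at 12 h (-0.29, adjusted p = 0.0255), and without the second, Pdha1 was (-0.44, adjusted p = 0.0260) and Hk1 was not (0.0873). With the GC and length correction the members lower with RA numbered 15 at 12 h and 16 at 24 h. Aldoa, Tpi1, Gapdh, Pgam1, Eno1, Pkm and Pfkl were then called lower at both times, with log2 differences between -0.11 and -0.39, as were Pgk1, Ldha, Ldhb and Pdha1 at 12 h and Hk1 at 24 h, while Pfkp and Pdk1 lost their 12 h calls. Over all genes the same correction moved the share of higher calls among all calls from 58.7% to 44.1% at 12 h and from 64.7% to 45.9% at 24 h.

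**Figure D3:**
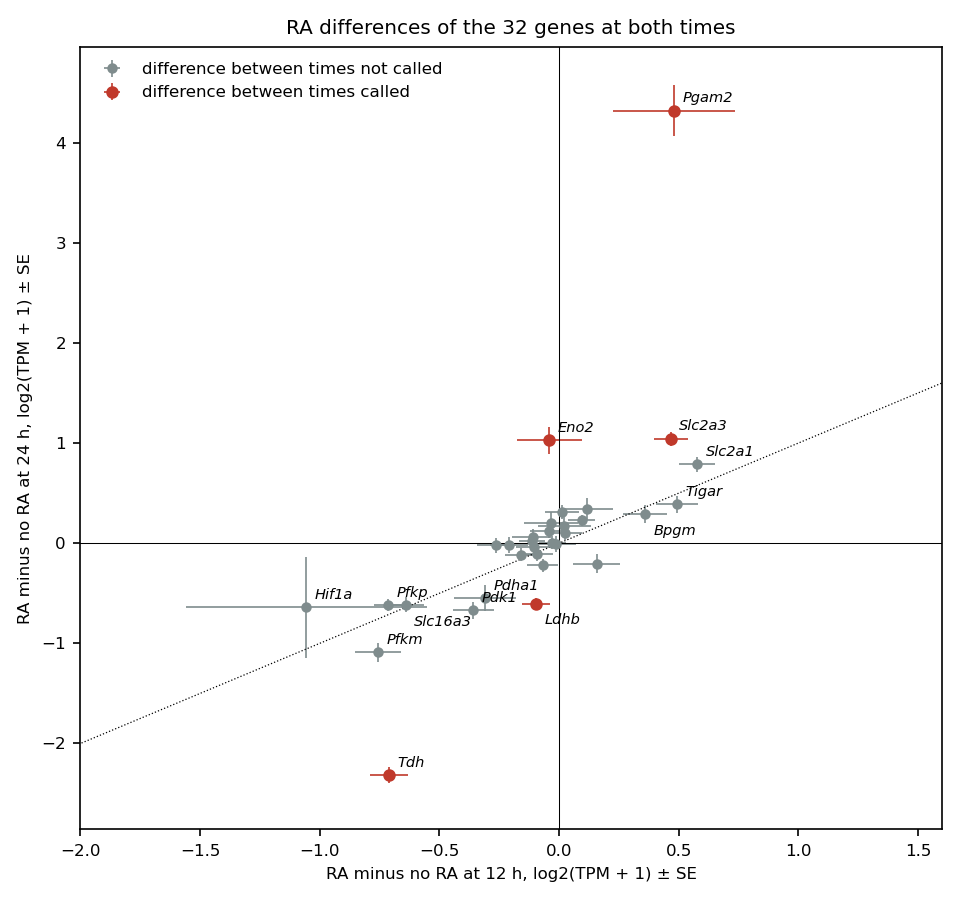
Each point is one of the 32 genes, with the log2 difference between RA and no RA at 12 h on the x axis and at 24 h on the y axis, standard errors as bars, and a dotted line where both are equal. Red marks the 5 genes whose difference changed between times; Pgam2 at 4.32 and Tdh at -2.32 lie farthest from the line.

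At 24 h the RA libraries also differed in markers of another cell type. The 8 extraembryonic endoderm markers summed to 216 to 246 TPM with RA and to 42.5 to 49.3 TPM without it, all 8 stood at 1 TPM or more in each RA library, and none was listed at 0 there. At 12 h the sums were 92.1 to 98.9 TPM with RA and 73.7 to 77.3 TPM without it. The 7 trophoblast markers summed to 99.9 to 128 TPM with RA and 56.8 to 59.5 TPM without it at 24 h, and the 8 fibroblast markers to 10.7 to 16.6 TPM and 15.3 to 18.4 TPM. Genes of the fibroblast list went both ways. Thy1 (mean 2.22 against 13.3 TPM), Dcn, Col3a1 and Postn had lower means with RA. Pdgfra (7.51 against 0.258 TPM), Col1a1, Col1a2 and Lum had higher ones, and Pdgfra is also in the endoderm list. The 4 neural markers summed to 50.9 to 63.2 TPM with RA and 38.0 to 39.4 TPM without it at 24 h. Of these, Sox1, Pax6 and Tubb3 had higher means with RA and Nes a lower one (2.61 against 3.25 TPM). The part of such cells in the values of Pgam2, Slc2a1, Eno2 and the other members was not tested.

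Of the 7 lists of related genes, that of other glycolysis and gluconeogenesis genes held the largest RA differences. At 24 h 5 of its 17 tested genes were higher and 1 lower, counts not far from the 22.8% and 12.5% of all genes. Fbp2, the muscle fructose bisphosphatase that runs opposite to phosphofructokinase, stood at 112 ± 2.86 TPM with RA against 24.3 ± 2.31 TPM without it at 12 h, and at 243 ± 22.2 TPM against 16.8 ± 1.28 TPM at 24 h (3.78, limma adjusted p = 8.67e-11). Fbp1, the liver form, stood at 39.2 ± 1.29 TPM against 6.90 ± 1.44 TPM at 12 h and 38.2 ± 3.97 TPM against 4.05 ± 0.601 TPM at 24 h.

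The counts of the other lists stand against 22.0% of all genes higher and 20.4% lower at 12 h without RA, and 22.8% and 12.5% with RA at 24 h. In the tricarboxylic acid cycle list 8 of 21 genes were higher and 0 lower with RA at 24 h, led by Idh3b, an isocitrate dehydrogenase subunit (0.58), and Mdh2, the mitochondrial malate dehydrogenase (0.41); at 12 h 1 was higher. In the serine, glycine and threonine list 9 of 12 fell and 1 rose over 12 h without RA, with Phgdh, which draws serine synthesis from glycolysis, at 106 ± 11.95 TPM against 212 ± 7.17 TPM. From 12 h to 24 h without RA 7 of the 12 rose and 3 fell (17.1% and 22.6% of all genes, median log2 difference 0.43). With RA at 24 h 6 of the 12 were higher and 3 lower, among them Phgdh (0.75) and, downward, the glycine cleavage enzyme Gldc (-0.74). Gcat, the partner of Tdh in threonine breakdown, fell from 127 ± 9.34 TPM to 57.7 ± 5.97 TPM by 12 h. Of 13 tested pyruvate transport and dehydrogenase partners, 4 rose and 3 fell at 12 h without RA; Mpc1, a subunit of the mitochondrial pyruvate carrier, went from 41.2 ± 6.87 TPM to 93.4 ± 4.04 TPM and stood at 145 ± 8.98 TPM after 12 h with RA, but its RA difference was lower at 24 h than at 12 h (-0.80, limma adjusted p = 0.00348). Of 11 tested pentose phosphate genes 1 rose and 2 fell at 12 h without RA, and 2 were higher and 3 lower with RA at 24 h, including Prps2, lower by a log2 difference of -1.55; these counts are near the background or too small to set apart from it. Of 16 tested glycogen genes 2 rose and 5 fell at 12 h without RA, and Pgm1, the phosphoglucomutase, went from 113 ± 0.288 TPM to 50.9 ± 5.08 TPM and back up to 134 ± 1.29 TPM at 24 h.

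Families with several forms also changed in composition, as shares of summed TPM. Slc2a3 made up 68.5% ± 0.704 of the 2 glucose transporters at the start (SD, n = 3), 58.3% ± 0.362 after 12 h and 47.1% ± 0.490 after 24 h without RA. With RA its share was 56.4% ± 1.01 at 12 h and 51.5% ± 0.511 at 24 h. The Hk1 share of hexokinases fell from 39.3% ± 0.435 to 26.99% ± 0.566 and 17.2% ± 0.290 without RA, and was 14.9% ± 0.562 after 24 h with RA. The Pfkm share of phosphofructokinases was 8.62% ± 0.639 at the start, 18.6% ± 0.612 and 11.9% ± 0.148 at 12 h and 24 h without RA, and 14.97% ± 0.348 and 6.83% ± 0.462 with RA. Libraries did not overlap in any of these comparisons, and the exact two-sided permutation p was 0.10 in each, the smallest that 3 against 3 libraries allow.

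The lactate dehydrogenase share moved in both directions. Ldhb made up 23.2, 23.7 and 23.5% of Ldha and Ldhb in the 3 starting libraries, 33.9, 32.1 and 32.5% after 12 h and 14.9, 15.1 and 15.2% after 24 h without RA, and 9.68, 9.79 and 9.92% after 24 h with RA. The shares rose by 12 h and were below the start at 24 h, lowest with RA, with no overlap (exact permutation p = 0.10 for each, the smallest possible). Pdk1 went from 40.8% ± 0.988 of Pdk1 and Pdk3 at the start to 72.4% ± 0.917 at 24 h without RA, and stood at 61.2% ± 0.986 with RA. Pgam2 made up 5.44% ± 0.0677 of the phosphoglycerate mutases after 24 h with RA and 0.237% ± 0.109 without it.

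**Figure D4:**
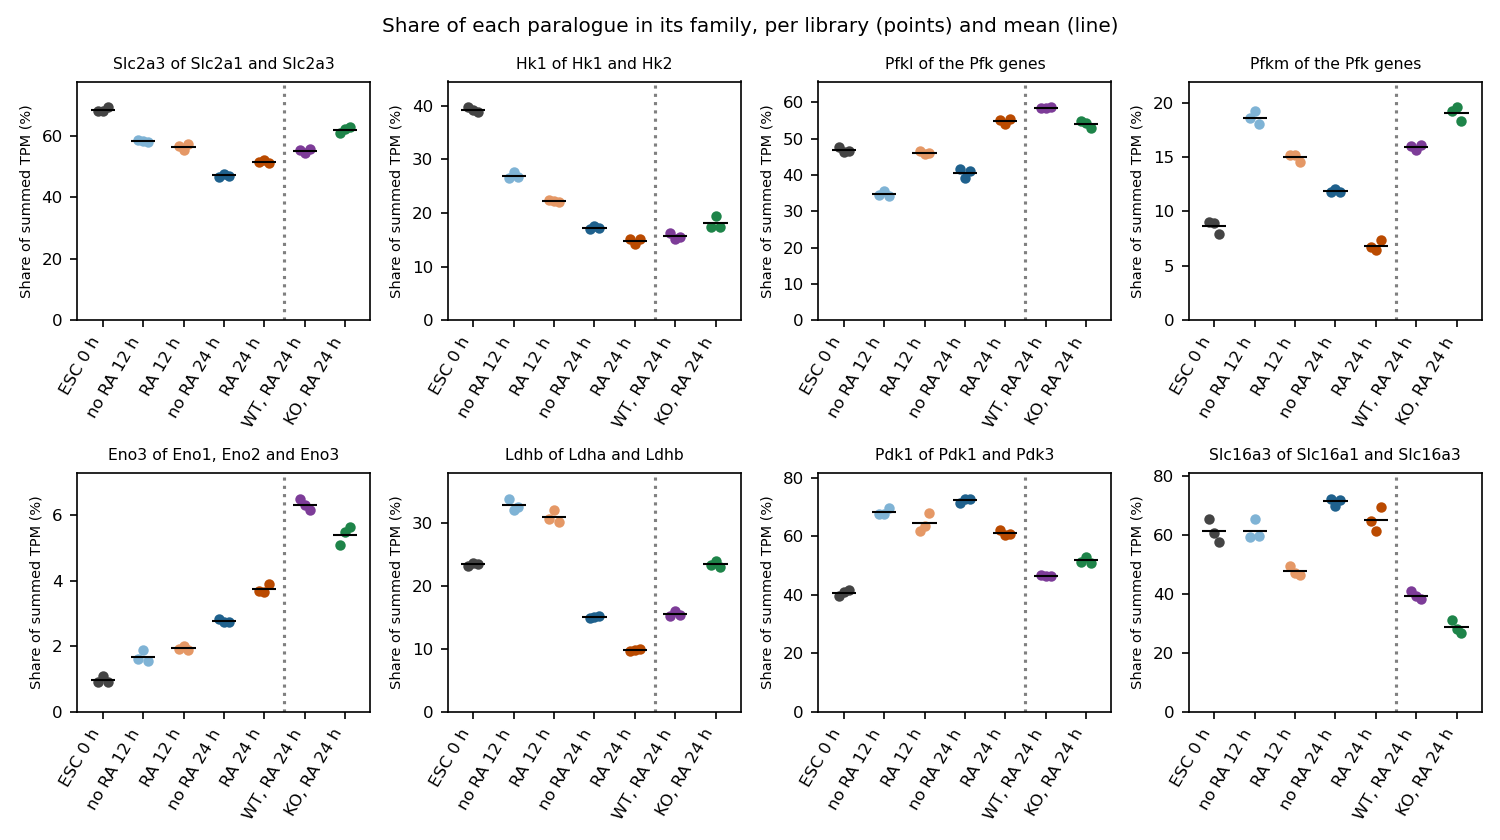
Share of 1 gene in the summed TPM of its family, in percent from 0, with 1 point per library and a line at the mean; the knockout set right of the dotted line was summarised on other gene models. The Hk1 share falls from 39.3% at the start to 17.2% at 24 h without RA, and the Ldhb share rises to 32.8% at 12 h before it drops to 15.1%.

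The last question was what loss of Cyp26a1 changed in cells kept 24 h with RA. In the knockout libraries 11 of the 32 members were lower (6.65% of the 12848 genes tested), 2 higher (3.34%) and 19 not called, with a median log2 difference of -0.18 against -0.05 for all genes. Tpi1, Pgk1, Pgam2, Eno1, Eno3, Pfkl, Pfkp, Slc2a1, Ldha, Slc16a3 and Pdk3 were lower, and Tigar and Tdh higher.

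Pgam2 showed the largest fall, from 365, 353 and 356 TPM in the wild type to 207, 194 and 172 TPM in the knockout (-0.91 ± 0.07, limma adjusted p = 0.00159). The groups were clearly separate. Slc16a3 fell from 50.7, 47.4 and 46.1 TPM to 29.6, 26.3 and 23.3 TPM (-0.85 ± 0.10, limma adjusted p = 0.00534), and Slc16a1, the other lactate transporter, was at 73.1, 73.4 and 74.7 TPM and 65.9, 67.1 and 64.00 TPM without being called (limma adjusted p = 0.0942). Tpi1 fell from 582, 578 and 553 TPM to 419.7, 393 and 356 TPM (-0.55 ± 0.07, limma adjusted p = 0.00601) and Eno3 from 127, 119.5 and 116 TPM to 83.2, 86.5 and 79.9 TPM (-0.53 ± 0.06, limma adjusted p = 0.00500). Libraries of neither gene overlapped. Tdh was higher, at 80.98, 87.96 and 77.8 TPM against 47.4, 43.7 and 39.6 TPM (0.90 ± 0.09, limma adjusted p = 0.00276), and Tigar at 41.8, 41.6 and 36.8 TPM against 29.9, 26.6 and 27.4 TPM (0.50 ± 0.08, limma adjusted p = 0.0156).

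The remaining lower members had log2 differences of -0.46 (Pfkl), -0.46 (Ldha), -0.40 (Pgk1), -0.34 (Pdk3), -0.30 (Slc2a1), -0.29 (Eno1) and -0.28 (Pfkp). Slc2a3 (0.10), Pdk1 (-0.04) and Pfkm (-0.09) had overlapping libraries. Of the 8 members called both here and for RA at 24 h in the time course, which share no library, 4 had opposite directions (Slc2a1, Pgam2, Eno3 and Tdh) and 4 the same (Tigar, Pfkp, Pgk1 and Slc16a3). The matching split over all genes was not counted. Ldhb made up 15.5% ± 0.395 of Ldha and Ldhb in the wild type and 23.4% ± 0.521 in the knockout, and Pgam2 31.8% ± 0.445 and 21.6% ± 1.09 of the mutases, both without overlap (exact permutation p = 0.10, the smallest possible).

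Tpi1, Pgam2, Eno3, Slc16a3 and Tdh kept their calls under every alternative, and the other 8 did not. Lower members numbered 5 after scaling by median of ratios, where the share of higher calls among all calls moved from 33.4% to 50.0%, and 4 to 15 when 1 library was left out, with 15 without the third knockout library, where Aldoc, Pkm, Pfkfb3 and Hif1a joined the lower members and Ldhb the higher ones; Pfkp was not called with the replicate number as a block (adjusted p = 0.0707). The 8 extraembryonic endoderm markers, all at 1 TPM or more in each library, summed to 370 to 396 TPM in the wild type and to 150 to 158 TPM in the knockout, and the pluripotency markers to 6430 to 6701 TPM and 8182 to 8984 TPM, whose part in the members' values was not tested.

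**Figure D5:**
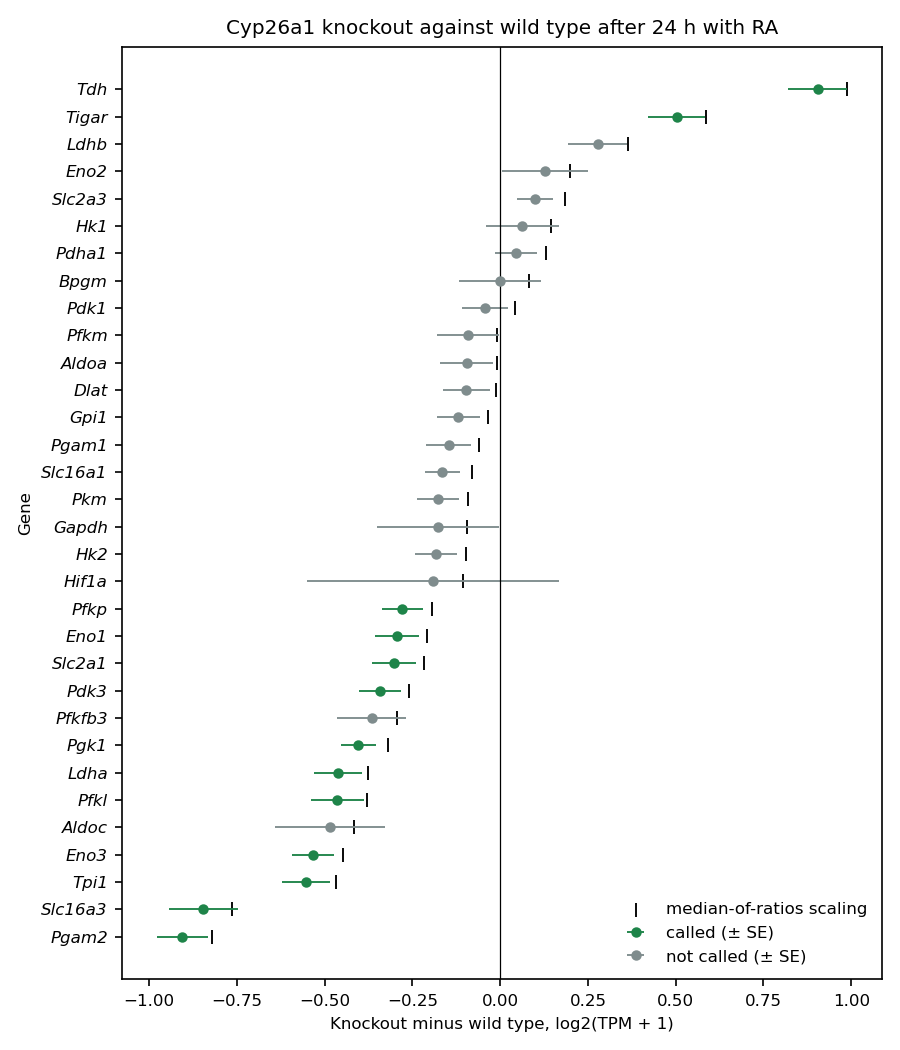
Log2 difference between knockout and wild-type libraries for the 32 genes in order, with standard errors; green points were called and black ticks give the value after median-of-ratios scaling. Pgam2 at -0.91 and Slc16a3 at -0.85 are lowest and Tdh at 0.90 is highest, and the ticks lie to the right of the points.

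Against 6.65% of all genes lower and 3.34% higher in the knockout, 9 of 28 HIF and hypoxia genes were lower in the knockout and 2 higher, with Bnip3 at 44.4 ± 3.63 TPM against 96.2 ± 1.62 TPM (-1.10, limma adjusted p = 0.000814) and Ak4, an adenylate kinase, higher by 0.83. In the serine, glycine and threonine list 4 of 12 were lower and 0 higher, led by Gldc (-0.92). Glycogen genes had 4 of 16 lower, the tricarboxylic acid cycle 3 of 21, other glycolysis and gluconeogenesis 2 of 17, with Fbp2 at 435 ± 13.3 TPM against 637 ± 12.9 TPM (-0.55, limma adjusted p = 0.00154), and none of those 3 lists had a gene called higher. Of the pyruvate transport and dehydrogenase partners 1 of 13 was lower (Pdk2, -0.48) and 1 higher (Mpc1, 0.35), and no pentose phosphate gene of 11 was called.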

How the data were processed

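Each library's table, per the file headers, gives coverage, FPKM and TPM per gene as computed by the authors; HISAT2, StringTie and mm10 are named in the submitters' processing notes, without versions. The deposited TPM values were the measure tested, the deposited FPKM served as an alternative, and the deposited coverage signal entered only the depth estimate (the coverage to FPKM ratio that the largest number of genes shared, 9.79% to 10.5% of them in time-course tables and 55.7% to 56.5% in the others). Rows that repeat a gene identifier were summed. Aldoa has 2 Ensembl rows in the time course. The one used is ENSMUSG00000030695, and the other (0.967 to 5.01 TPM) was left out of the counts of members. No read counts were used.

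Each set was fitted apart with limma 3.58.1 (R 4.3.3; eBayes with trend, group means) on log2(TPM + 1) of genes at 1 TPM or more in at least 3 libraries, 13948 and 12848 genes. Adding 1 understates the change of low genes. A call is a Benjamini-Hochberg adjusted p under 0.05 over all genes of the set. Depth and the number of libraries limit precision. Shares were tested by exact permutation. The 7 comparisons comprise 6 planned and 1 added. Alternatives were pseudocount 0.1, dropping the filter, a minimum mean of 5 TPM, scaling by median of ratios or quantiles, FPKM, eBayes without trend, a replicate block, only the groups compared, each library left out, and natural splines (4 degrees of freedom) of GC content and length of the longest GENCODE M21 transcript, known for 99.92% and 98.01% of genes tested. The scripts were tested on simulated data with independent noise for each gene. Those data lacked the shared within-group axis of the real libraries, so that test does not cover its effect on calls. In the knockout set, the deviations of same-numbered libraries had correlations of 0.32, 0.19 and 0.54. Those of differently numbered libraries reached 0.27 (wild type 1, knockout 2) and 0.23 (wild type 2, knockout 1). These values show no clear pairing, and the labels give none. The main fit did not pair libraries, and the replicate block was only an alternative.

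All 32 members are reported in every comparison, and from each companion list up to 3 called genes with the largest difference and no overlap could be named. Members and lists were chosen with earlier results of these data known. Promoters are from RefSeq (GRCm38.p6).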

Additional observations from a re-analysis of the deposited data

Results flagged for a closer look

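The difference between RA and no RA was not the same at 12 h and 24 h in 5 members, by a test of the change itself (limma interaction, adjusted over all 13948 genes). It was larger at 24 h by 0.58 on the log2(TPM + 1) scale for Slc2a3 (adjusted p = 0.00344), by 3.84 for Pgam2 (adjusted p = 2.98e-05) and by 1.07 for Eno2 (adjusted p = 0.00402). It was lower at 24 h, with a change of -0.51 for Ldhb (adjusted p = 0.00256) and -1.61 for Tdh (adjusted p = 2.71e-06). With 3 libraries per group no test for a single outlying library was made.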

How the results depend on the processing

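Of all values of single members recomputed under an alternative, 3553 stayed on the same side of the threshold (values not called in either fit could change sign), 151 lost a call, 60 gained one and 4 changed sign with a call in at least 1 of the 2 fits. These 4 arose with the GC and length correction: Ldha at 12 h with RA (-0.12), Pfkl at 24 h with RA (-0.11), Slc16a1 at 24 h without RA against the start (-0.00313) and Pdha1 from 12 h to 24 h without RA (-0.23). The cause was not tested. With this correction members lower with RA numbered 15 at 12 h (6 before) and 16 at 24 h (8), genes called with RA at 12 h 3688 (2431 before) and genes whose RA difference changed between times 1536 (955). Quantile normalization gave 599 of the latter and moved the share of its higher calls from 60.8% to 46.6%; the GC and length correction moved it to 44.9%. Median-of-ratios scaling left 5 members higher with RA at 24 h (9) and 5 lower in the knockout (11), where the GC and length correction moved the share of higher calls from 33.4% to 51.8% and quantile normalization to 45.3%. Leaving out 1 library gave 3832 to 7531 genes called with RA at 24 h (4915), 655 to 1620 whose RA difference changed (955) and 3 to 6 members upward (3), each highest without the second 24 h RA library. For the knockout it gave 314 to 3156 genes called (1284), highest without the third knockout library and lowest without the third wild-type library, 4 to 15 members lower and 1 to 3 higher. With the replicate block the knockout comparison called 1162 genes, with 10 members lower and 2 higher, and it changed no call of a member but that of Pfkp; together with the GC and length correction it called 1736 genes, with 10 lower and 3 higher. In the time course the libraries also share only a number (correlations of same-numbered deviations of -0.84 to 0.42). There the replicate block ended the calls of Slc16a1 at 12 h without RA (limma adjusted p = 0.0504) and Hk1 at 12 h with RA (0.0596). It added Pgam2 at 24 h without RA (0.0333). Hif1a, with a standard error of 0.50 in time-course differences between 2 groups, and Pgam2, at a few TPM without RA, with 0.25, have the least certain differences.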
